A study of Homo sapiens with 9 samples.

Results

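The genes examined were 43 components of DNA replication licensing and of the replication fork, out of 19930 genes with values in the 9 libraries. They were chosen by symbol from general knowledge of the replication machinery, by a rule that uses no measured value. Earlier results of these data were known when they were chosen. All 43 passed the expression filter that left 12884 genes for testing. They comprised 6 origin recognition complex genes, 3 licensing factors with their inhibitor, 6 MCM2-7 helicase genes, 6 helicase activation genes, 10 polymerase genes, 6 clamp and clamp loader genes, 3 RPA genes and 3 Okazaki fragment genes.

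In a dividing cell, the origin recognition complex (ORC) marks origins during G1, and CDC6 and CDT1 then load the ring-shaped MCM2-7 helicase there, which is called licensing. Geminin, the product of GMNN, binds CDT1 and prevents a second round of loading within the same cycle. In S phase, MCM10, CDC45 and the GINS complex switch the helicase on, RPA coats the exposed single strands, polymerase alpha-primase starts each new strand, and polymerases delta and epsilon extend it on the sliding clamp PCNA, which the RFC complex loads. Many of these genes are transcribed under E2F factors at the G1/S transition, and several are used as proliferation markers in breast cancer.

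The libraries came from MDA-MB-453, a breast cancer cell line, transfected with Lipofectamine 2000, and the protocol in the labels gives harvest at 48 h for qRT-PCR. The X453_NC group carried a control siRNA, and the X453_1 and X453_2 groups carried knockdown of the long noncoding RNA LINC00673, the number in the title being read as that of the siRNA. Each group had 3 libraries, given below in the order unsuffixed, r1, r2, and no label said that they came from separate cultures, so a P value measured the spread between these libraries, which may be technical. The level of LINC00673 was not analysed here, and the knockdown was not checked in these libraries.

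The marker genes went against the cell line label. FOXA1, a luminal transcription factor expected in this line, was listed at between 0 and 0.04 FPKM in all 9 libraries. GATA3 stood at 0.41 to 0.88 FPKM, while VIM, a mesenchymal marker expected low, stood at 366 to 441 FPKM. The epithelial genes KRT8 (3011 to 3773 FPKM), KRT18 (1680 to 2509 FPKM) and EPCAM (287 to 330 FPKM) were high, ERBB2 stood at 11.8 to 17.8 FPKM, COL1A1 at 3.49 to 7.08 FPKM, and ESR1, PTPRC and PECAM1 were at or below 0.12 FPKM, while PGR was not analysed here. The same held for all 3 groups, which are therefore called the libraries labelled MDA-MB-453. Estimated depth was 23.5 to 27.3 M fragments per library, at which the lowest member value, 2.34 FPKM for GINS3, came from about 134 fragments. Libraries correlated across genes at 0.994 to 0.996 within a group and at 0.955 or more between groups. FPKM are fragments scaled to gene length and library depth, so that levels may be compared between genes.

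Most of the 43 members were not called in either knockdown group, and those called went both ways. A gene counted as called when it changed 1.3-fold or more with an adjusted P no higher than 0.05 (limma on log2(FPKM + 1), Benjamini-Hochberg over 12884 genes), and "rose" and "fell" are used only for called genes. In X453_1, 8 of 43 members (18.6%) rose against 11.0% of all genes tested, and 2 (4.7%) fell against 15.5% of all genes tested. In X453_2, 11 members (25.6%) rose against 10.9% of all genes tested, and 3 (7.0%) fell against 23.0%. The median log2 fold change of the members was 0.14 in X453_1 and 0.12 in X453_2, beside 0.00 and -0.10 over all genes tested. Both comparisons used the same X453_NC libraries. Correction for GC content covered only the 11382 tested genes that had a GC value. After it, 5 of 43 members were up and 1 down in X453_1, beside 11.6% and 10.8% of all genes. The share of members up in X453_1 was then near that over all genes. In X453_2, 13 members were up and 1 down, beside 14.8% up and 14.8% down over all genes.

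CDC6, MCM4, PRIM2, POLD3, PCNA and FEN1 rose in both knockdown groups, and CDT1 and POLD1 fell in both. GMNN and GINS1 were called higher in X453_1 alone, MCM2, MCM6, MCM10, RFC2 and RFC4 higher in X453_2 alone, and GINS3 lower in X453_2 alone. Of these 8, only MCM2 was also called in the direct comparison of X453_2 with X453_1. The remaining 27 members were not called against X453_NC in either group. In bulk RNA, fewer cells expressing a gene and less RNA per cell cannot be told apart. The share of cells in S phase was not measured in these libraries. From flow cytometry, the paper reports a lower S phase percentage in MDA-MB-453 after LINC00673 knockdown.

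**Figure D1:**
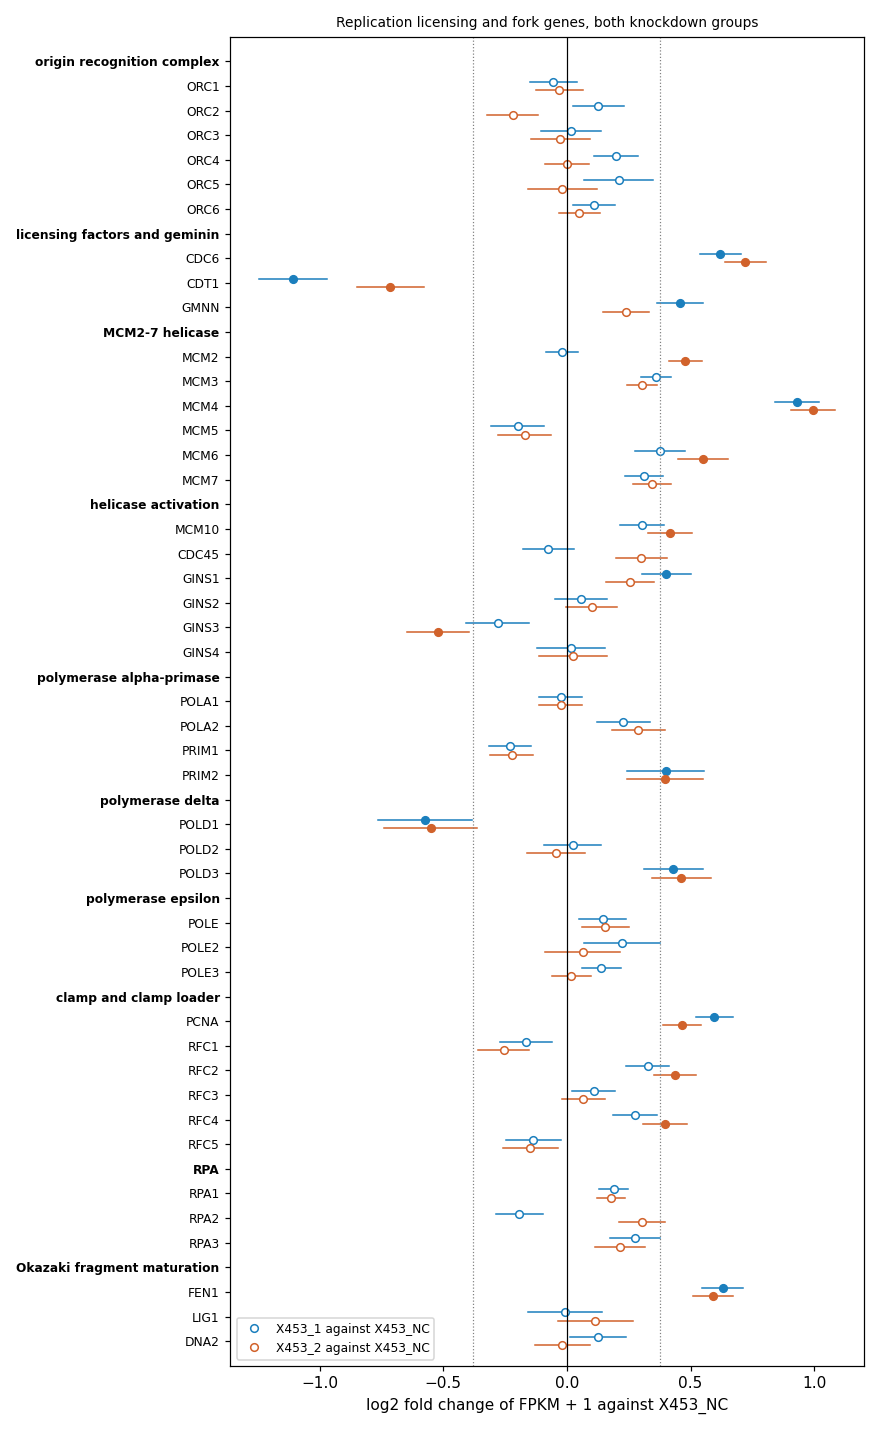
Log2 fold change of FPKM + 1 against X453_NC (horizontal axis) for each of the 43 members, grouped by role, in X453_1 (blue) and X453_2 (orange). Lines are 95% confidence intervals from limma, filled points are called genes, open points are not called, and dotted lines mark the 1.3-fold limit. CDT1 and POLD1 lie far to the left in both groups, at -1.11 and -0.57 in X453_1, and MCM4 far to the right, at 0.93 and 0.99, while the 6 ORC genes stay inside the dotted lines.

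None of the 6 ORC genes was called in any comparison by limma. At an unadjusted P of at most 0.05 with no fold limit, 4 differed from X453_NC in X453_1 and 1 in X453_2. By adjusted P with no fold limit, 32.1% of all genes were higher and 32.3% lower in X453_1, and 26% and 44.8% in X453_2. ORC4, a subunit of the origin-binding ring, had the largest mean difference by the rule for named genes. It measured 11.9, 12.7 and 11.9 FPKM in X453_NC, 14.4, 13.7 and 14.2 FPKM in X453_1, and 12.5, 12.0 and 12.0 FPKM in X453_2. X453_1 lay above all control libraries and X453_2 among them. The log2 fold change of ORC4 was 0.20 (SE 0.040, adjusted P = 0.0015 by limma) in X453_1, under the fold limit, and -0.00 (SE 0.040, adjusted P = 0.99) in X453_2. The other 5 ORC genes ranged from -0.06 to 0.21 in X453_1 and from -0.22 to 0.05 in X453_2 on the log2 scale, and their X453_NC means lay between 9.69 FPKM for ORC5 and 21.2 FPKM for ORC6.

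The licensing factors moved in opposite directions. CDC6, the ATPase that closes ORC around DNA and recruits the helicase, measured 12.0, 11.3 and 11.4 FPKM in X453_NC, 18.9, 18.1 and 18.0 FPKM in X453_1, and 19.5, 19.6 and 20.1 FPKM in X453_2. All 6 knockdown libraries were above all 3 control libraries. CDC6 rose 1.58-fold in X453_1 (log2 fold change 0.62, SE 0.037, adjusted P = 5.6e-07 by limma) and 1.71-fold in X453_2 (log2 fold change 0.72, SE 0.037, adjusted P = 1.2e-07 by limma).

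CDT1, the partner of CDC6 in loading MCM2-7, measured 38.1, 33.8 and 36.5 FPKM in X453_NC, 16.4, 17.0 and 15.3 FPKM in X453_1, and 20.0, 22.8 and 22.2 FPKM in X453_2. The 3 groups did not overlap: control was highest, X453_2 intermediate and X453_1 lowest. The mean was 0.449 times that of X453_NC in X453_1 (log2 fold change -1.11, SE 0.061, adjusted P = 3.8e-07 by limma), the largest fall of any member, and 0.599 times in X453_2 (log2 fold change -0.71, SE 0.061, adjusted P = 3.7e-06 by limma). CDT1 has the highest transcript GC content of the 43 members, 64.9%, and the fifth of tested genes with the highest GC content stood at a median of -0.30 in X453_1 and -0.35 in X453_2 on the log2 scale. After GC correction CDT1 was still called in X453_1, at -0.69, but stood at -0.28 in X453_2, inside the fold limit. The part of GC content in these falls was not tested further.

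GMNN, which encodes the CDT1 inhibitor geminin, measured 23.7, 22.7 and 23.4 FPKM in X453_NC, 33.7, 32.8 and 30.3 FPKM in X453_1, and 27.7, 28.2 and 26.9 FPKM in X453_2 (chosen after the values were seen). The groups did not overlap, in the reverse order to CDT1. GMNN rose in X453_1 (log2 fold change 0.46, SE 0.042, adjusted P = 8.8e-06 by limma), a call that ended after GC correction (0.375), and was 0.24 in X453_2 (SE 0.042, adjusted P = 5.4e-04), under the fold limit. The ratio of CDT1 to GMNN FPKM within a library, which no scaling of libraries can move, was 1.49 to 1.61 in X453_NC, 0.487 to 0.518 in X453_1 and 0.721 to 0.826 in X453_2. GC correction brought the log2 difference between the fold changes of CDT1 and GMNN from -1.56 to -1.06 in X453_1 and from -0.95 to -0.56 in X453_2. The ratio was chosen after the values were seen; the exact permutation test over 3 against 3 libraries gave a two-sided P of 0.1 for each knockdown group, the smallest that this design allows.

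**Figure D2:**
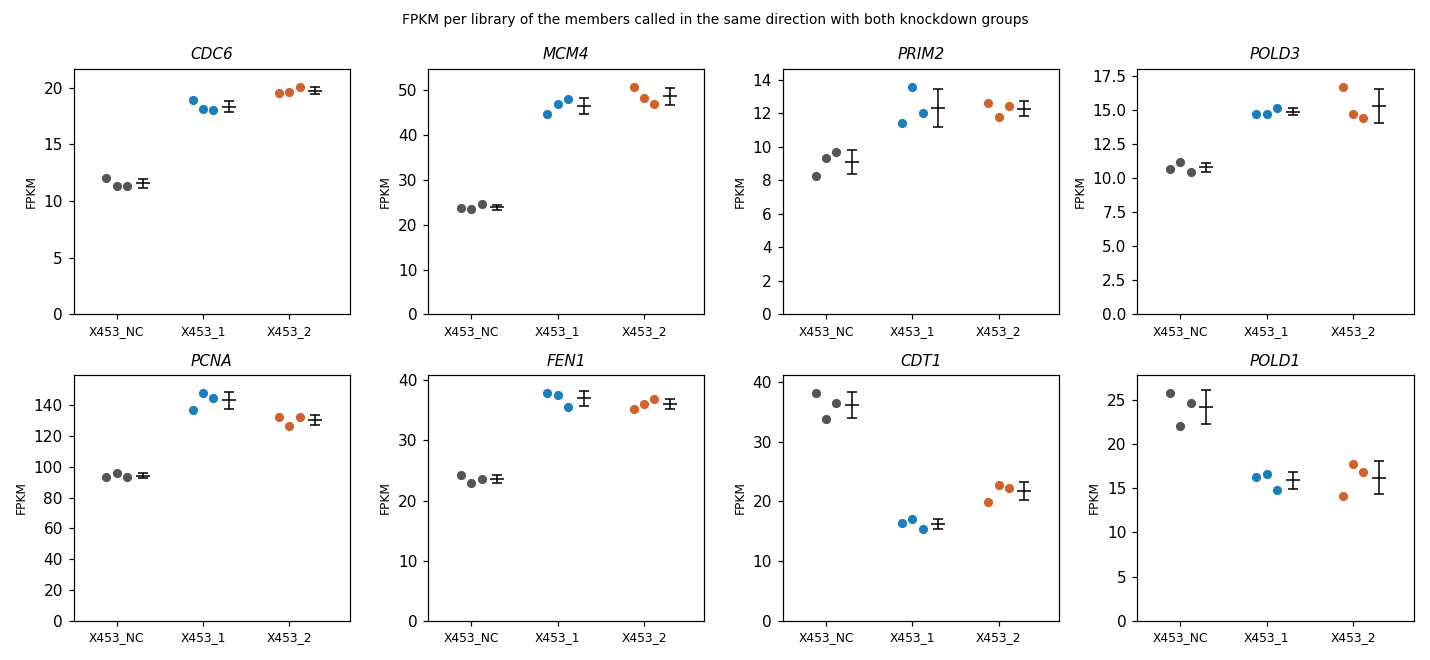
FPKM (vertical axis, from 0) in each of the 9 libraries for the 8 members called in the same direction in both knockdown groups. Points are libraries, and the bar beside each group is its mean with SD (n = 3). In each panel the 3 control libraries (grey) do not overlap with those of X453_1 (blue) or X453_2 (orange), and X453_1 and X453_2 do not overlap each other for CDT1 (15.3 to 17.0 and 20.0 to 22.8 FPKM), PCNA and CDC6.

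Within the MCM2-7 ring, MCM4 stood out. MCM4, 1 of the 3 subunits of the catalytic core of the helicase, measured 23.8, 23.5 and 24.6 FPKM in X453_NC, 44.7, 46.9 and 48.2 FPKM in X453_1, and 50.8, 48.3 and 47.0 FPKM in X453_2. Every knockdown library was well above every control library, and the knockdown groups overlapped. MCM4 rose 1.95-fold (log2 fold change 0.93, SE 0.040, adjusted P = 8.1e-08 by limma) and 2.03-fold (log2 fold change 0.99, SE 0.040, adjusted P = 2.7e-08 by limma), the largest rise of any member in each comparison. X453_2 differed from X453_1 by 0.06 on the log2 scale, with a 95% interval of -0.03 to 0.15.

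The other 5 subunits had smaller or opposite fold changes. MCM2 measured 29.7, 28.5 and 29.1 FPKM in X453_NC, 28.96, 28.82 and 28.33 FPKM in X453_1, and 40.5, 41.6 and 40.9 FPKM in X453_2 (chosen after the values were seen). X453_1 thus overlapped the control libraries, and X453_2 lay clear above both. MCM2 rose in X453_2 (log2 fold change 0.48, SE 0.029, adjusted P = 4.1e-07 by limma) and stood at -0.02 in X453_1 (SE 0.029, adjusted P = 0.58); over 22.7% of its exonic bases an antisense gene, AC023593.1, overlaps it in GENCODE v29, and the strand setting of the counting is not given in the sources used here. MCM6 rose in X453_2 (0.55, SE 0.046, adjusted P = 3.0e-06 by limma) from a mean of 19.8 ± 1.3 to 29.4 ± 0.54 FPKM (SD, n = 3), and was at 0.377 in X453_1, just inside the limit of 0.379. It passed that limit without the X453_NC r1 library (0.42), without X453_NC r2 (0.39), without the unsuffixed X453_1 library (0.38) or without X453_1 r2 (0.39). A pseudocount of 0.1 FPKM also took it past the limit (0.392). In X453_1, MCM6 was at 0.297 after GC correction, and the lowest value with a library left out was 0.325.

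MCM3 and MCM7 were higher in both groups without passing the fold limit, with log2 fold changes of 0.36 and 0.31 for MCM3 and of 0.31 and 0.34 for MCM7, while MCM5 was at -0.20 and -0.17. All 6 of these had an adjusted P under 0.01 by limma, and no knockdown library of MCM3, MCM5 or MCM7 overlapped the control libraries. MCM7 passed the limit in both groups after GC correction (0.42 and 0.50), while MCM3 did not (0.35 and 0.36) and MCM5 stood at -0.12 and -0.04. With median-ratio scaling MCM5 stood at -0.20 and -0.07, and MCM3 (0.41) and MCM7 (0.449) passed the limit in X453_2 only. As a share of the summed FPKM of the 6 subunits in a library, MCM4 made up 9.97% to 10.4% in X453_NC, 15.1% to 16.2% in X453_1 and 14.7% to 16.2% in X453_2. MCM5 made up 9.1% to 10.3%, 6.56% to 6.64% and 6.13% to 6.50% in the same order, and MCM2 12.1% to 12.5%, 9.5% to 9.8% and 12.8% to 13.1%. MCM7 was the most abundant subunit in all 9 libraries, at 34.4% to 37.7% of the sum.

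Of the helicase activators, GINS3 fell and MCM10 and GINS1 rose, each in 1 group alone. GINS3, a subunit of the GINS ring that joins CDC45 to MCM2-7, measured 4.11, 3.90 and 4.03 FPKM in X453_NC, 3.28, 2.96 and 3.15 FPKM in X453_1, and 2.43, 2.34 and 2.72 FPKM in X453_2. The 3 groups did not overlap, with X453_2 lowest. GINS3 fell in X453_2 (log2 fold change -0.52, SE 0.057, adjusted P = 2.0e-05 by limma) and was at -0.28 (SE 0.057, adjusted P = 0.0016) in X453_1; an antisense gene overlaps 10.9% of its exonic bases.

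MCM10, which helps the helicase start, rose in X453_2 (0.42, SE 0.040, adjusted P = 8.4e-06 by limma) from 5.91 ± 0.20 to 8.23 ± 0.21 FPKM (SD, n = 3) and was at 0.30 in X453_1. GINS1 rose in X453_1 (0.40, SE 0.044, adjusted P = 2.7e-05 by limma) from 7.58 ± 0.089 to 10.4 ± 0.51 FPKM (SD, n = 3), a call that ended after GC correction (0.32) or without X453_1 r2 (0.37), and was at 0.26 in X453_2. CDC45, GINS2 and GINS4 were not called against X453_NC, with log2 fold changes of -0.07 to 0.06 in X453_1 and 0.02 to 0.30 in X453_2. With median-ratio scaling CDC45 was called higher in X453_2 (0.403).

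In polymerase alpha-primase, PRIM2, the large primase subunit, measured 8.27, 9.35 and 9.67 FPKM in X453_NC, 11.4, 13.6 and 12.0 FPKM in X453_1, and 12.6, 11.8 and 12.4 FPKM in X453_2. All knockdown libraries were above all control libraries, although the control libraries spread by 8.1% (coefficient of variation, the widest of any member in X453_NC). PRIM2 rose by 0.40 on the log2 scale in both groups (SE 0.069, adjusted P = 6.0e-04 in X453_1 and 5.3e-04 in X453_2 by limma), close to the limit. The call was lost in X453_1 after GC correction (0.31), without the unsuffixed X453_NC library (0.34) or without X453_1 r1 (0.33), and in X453_2 without the unsuffixed X453_NC library (0.34) or the unsuffixed X453_2 library (0.377). PRIM2 also shares 13.4% of its transcript windows with 2 other GENCODE genes, so its level is uncertain. PRIM1, the catalytic primase subunit, was at -0.23 and -0.22, POLA1 at -0.02 in both, and POLA2 at 0.23 and 0.29. None of the 3 was called, but with median-ratio scaling POLA2 was called higher in X453_2 (0.388). POLA2 shares 52.5% of its windows with another gene.

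Polymerase delta, which extends the lagging strand, showed opposite changes in its subunits. POLD1, the catalytic subunit, measured 25.8, 22.0 and 24.7 FPKM in X453_NC, 16.3, 16.6 and 14.8 FPKM in X453_1, and 14.1, 17.8 and 16.8 FPKM in X453_2. All knockdown libraries lay below all control libraries. POLD1 fell in X453_1 (log2 fold change -0.57, SE 0.084, adjusted P = 2.1e-04 by limma) and in X453_2 (-0.55, SE 0.084, adjusted P = 2.2e-04 by limma). Its GC content, 64.8%, is next to that of CDT1 and above the 60.7% of LIG1, the third highest, and after GC correction it was called in neither group, at -0.16 and -0.13; it also shares 9.6% of its transcript windows with AC020909.1.

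POLD3, an accessory subunit also used in break-induced replication, measured 10.7, 11.2 and 10.5 FPKM in X453_NC, 14.7, 14.7 and 15.1 FPKM in X453_1, and 16.7, 14.7 and 14.4 FPKM in X453_2. No knockdown library reached down to the control range. POLD3 rose by 0.43 (SE 0.053, adjusted P = 6.2e-05 by limma) and 0.46 (SE 0.053, adjusted P = 2.9e-05 by limma) on the log2 scale, and in X453_1 the GC-corrected value of 0.35 was inside the limit. POLD2, the small subunit and the most abundant of the 3 at 90.4 ± 4.7 FPKM in X453_NC (SD, n = 3), was at 0.02 and -0.04.

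None of the polymerase epsilon genes was called; their log2 fold changes ran from 0.14 to 0.22 in X453_1 and from 0.02 to 0.16 in X453_2. At an unadjusted P of at most 0.05 with no fold limit, 3 differed from X453_NC in X453_1 and 1 in X453_2. Shares over all genes with no fold limit are given above for the ORC genes. POLE, the catalytic subunit of the leading-strand polymerase, measured 9.72, 10.3 and 10.7 FPKM in X453_NC, 11.4, 11.3 and 11.6 FPKM in X453_1, and 11.1, 11.8 and 11.7 FPKM in X453_2. The knockdown libraries were slightly above the control libraries without overlap. The log2 fold change of POLE was 0.14 (SE 0.042, adjusted P = 0.012 by limma) and 0.16 (SE 0.042, adjusted P = 0.0074 by limma).

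PCNA, the sliding clamp and the member with the highest mean in the control libraries, measured 93.6, 96.1 and 93.2 FPKM in X453_NC, 137, 148 and 145 FPKM in X453_1, and 132, 127 and 133 FPKM in X453_2. The 3 groups did not overlap, with X453_1 highest. PCNA rose 1.52-fold in X453_1 (log2 fold change 0.60, SE 0.034, adjusted P = 4.7e-07 by limma) and 1.39-fold in X453_2 (0.47, SE 0.034, adjusted P = 1.3e-06 by limma). Of the clamp loader, RFC2 rose in X453_2 (0.44, SE 0.038, adjusted P = 4.4e-06 by limma) and stood at 0.33 in X453_1. RFC4 rose in X453_2 (0.40, SE 0.039, adjusted P = 1.1e-05 by limma) and stood at 0.28 in X453_1, and its call was lost without X453_NC r2 (0.37), without the unsuffixed X453_2 library (0.377) or without X453_2 r2 (0.378). RFC1, the large subunit, was at -0.17 and -0.26, RFC5 at -0.14 and -0.15, and RFC3 at 0.11 and 0.07, none of them called.

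No RPA gene was called against X453_NC with the FPKM as deposited. Against X453_NC, all 3 had an unadjusted P of at most 0.05 by limma with no fold limit in each knockdown group. In X453_2 against X453_1, only RPA2 did. Shares over all genes with no fold limit are given above for the ORC genes. RPA3, the smallest subunit, had the largest mean difference of the 3 and measured 23.6, 24.2 and 22.1 FPKM in X453_NC, 27.4, 27.9 and 29.9 FPKM in X453_1, and 28.0, 27.3 and 26.3 FPKM in X453_2. All knockdown libraries were above all control libraries. The log2 fold change of RPA3 was 0.28 (SE 0.045, adjusted P = 4.0e-04 by limma) and 0.22 (SE 0.045, adjusted P = 0.0017 by limma). RPA1 was at 0.19 and 0.18, and RPA2 at -0.19 and 0.30. With median-ratio scaling RPA2 was called higher in X453_2 (0.405, adjusted P = 2.1e-05 by limma).

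FEN1, the nuclease that removes the flap ahead of an Okazaki fragment, measured 24.2, 22.9 and 23.6 FPKM in X453_NC, 37.9, 37.6 and 35.6 FPKM in X453_1, and 35.16, 36.00 and 36.87 FPKM in X453_2. All 6 knockdown libraries were above the control libraries, and the knockdown groups overlapped. FEN1 rose 1.57-fold (log2 fold change 0.63, SE 0.037, adjusted P = 5.2e-07 by limma) and 1.53-fold (0.59, SE 0.037, adjusted P = 4.6e-07 by limma), and GC correction gave 0.64 and 0.66. LIG1, the ligase that joins the fragments, was at -0.01 and 0.12, and the nuclease-helicase DNA2 at 0.13 and -0.02, neither of them called; LIG1 was called in X453_2 after GC correction (0.38).

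**Figure D3:**
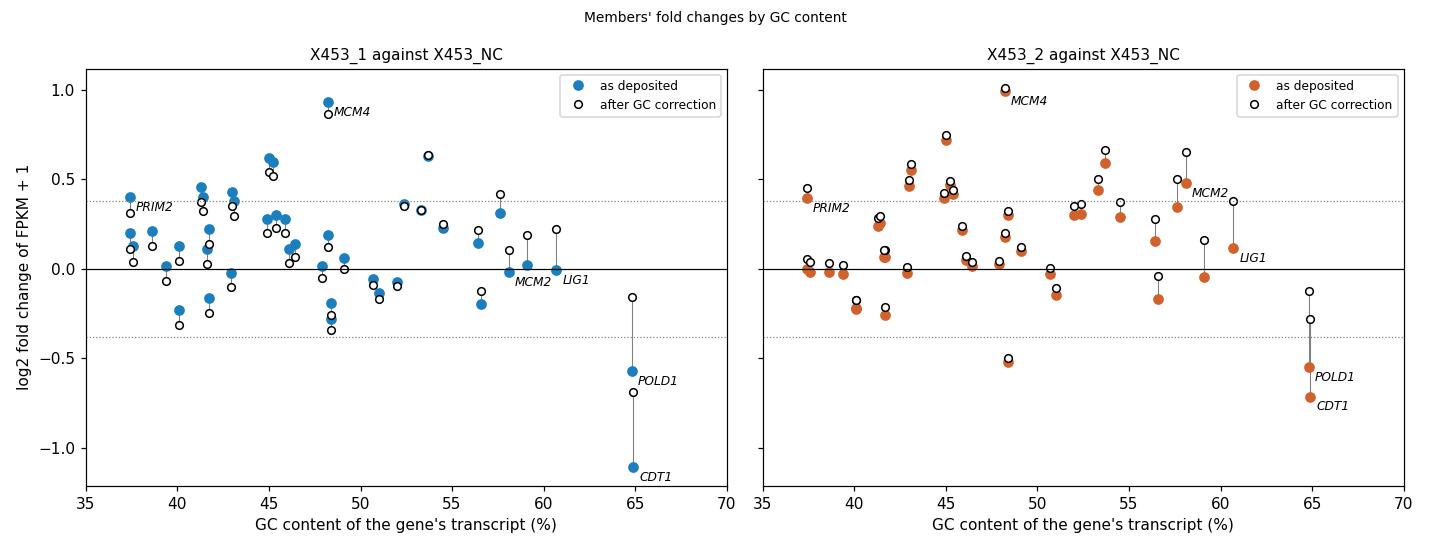
Log2 fold change of FPKM + 1 against X453_NC (vertical axis) by GC content of the gene's transcript in percent (horizontal axis) for the 43 members, X453_1 at left and X453_2 at right. Filled points are as deposited, open points after GC correction, a line joins both values of a gene, and dotted lines mark the 1.3-fold limit. CDT1 and POLD1 lie at 64.9% and 64.8% GC and move furthest, POLD1 to -0.16 and -0.13, while MCM4 at 48.2% GC stays at 0.87 and 1.01.

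When the broader roles were set side by side, called members occurred in each; over all genes tested, 11.0% rose and 15.5% fell in X453_1 and 10.9% rose and 23.0% fell in X453_2. Among the 14 licensing genes (ORC, MCM2-7, CDC6 and CDT1), 2 (14.3%) rose and 1 (7.1%) fell in X453_1, and 4 (28.6%) rose and 1 (7.1%) fell in X453_2. Among the 6 helicase activators, 1 (16.7%) rose in X453_1, and 1 rose and 1 fell in X453_2. Among the 10 polymerase genes, 2 (20%) rose and 1 (10%) fell in each group, and among the 6 clamp and clamp loader genes 1 (16.7%) rose in X453_1 and 3 (50.0%) in X453_2. With 6 to 14 genes in a role, 1 gene moves a share by several percentage points or more. The median log2 fold changes of these 4 roles were 0.16, 0.04, 0.14 and 0.19 in X453_1 and 0.03, 0.18, 0.04 and 0.23 in X453_2. The roles were described by these counts, and differences between roles were not tested. The summed FPKM of the MCM2-7 genes was 236.6 ± 1.0 in X453_NC, 298.7 ± 3.5 in X453_1 and 316.9 ± 3.0 in X453_2 (SD, n = 3), while that of the ORC genes was 83.2 ± 1.3, 90.1 ± 0.62 and 80.9 ± 3.4.

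The knockdown groups were then compared with each other. In X453_2 against X453_1, 3 members (7.0%) were called higher, beside 2.06% of all genes tested, and 0 were called lower, beside 5.32%. By limma with an unadjusted P of at most 0.05 and no fold limit, 19 members differed, 10 of them lower. With an adjusted P of at most 0.05 and no fold limit, 9 members were lower and 9 higher, beside 33.9% and 10.2% of all genes. The background turned over with the scaling: with median-ratio scaling 3.87% of all genes were higher and 2.37% lower, beside 4 members higher and 0 lower, and with GC correction 2.67% and 2.34%, beside the same counts of members. MCM2 was higher in X453_2 by 0.50 (SE 0.029, adjusted P = 4.3e-06 by limma). RPA2, the middle RPA subunit, measured 22.5, 22.3 and 22.4 FPKM in X453_NC, 19.4, 20.2 and 18.9 FPKM in X453_1, and 29.3, 27.8 and 26.5 FPKM in X453_2 (chosen after the values were seen). All X453_1 libraries were thus below and all X453_2 libraries above the control libraries, and the difference was 0.49 (SE 0.042, adjusted P = 3.3e-05 by limma).

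CDT1, lower than control in both, was higher in X453_2 than in X453_1 by 0.39 (SE 0.061, adjusted P = 8.5e-04 by limma). That call was lost without X453_1 r2 (0.36), without X453_2 r1 (0.36) or without X453_2 r2 (0.376). CDC45, which forms the active helicase with MCM2-7 and GINS, measured 17.2, 17.3 and 17.6 FPKM in X453_1 and 24.0, 21.8 and 22.8 FPKM in X453_2, with no overlap (chosen after the values were seen). Its difference of 0.375 (SE 0.046, adjusted P = 2.6e-04 by limma) was just inside the limit and passed it under GC correction (0.45), median-ratio scaling (0.48) or a pseudocount of 0.1 FPKM (0.39), and without X453_1 r2 (0.38) or X453_2 r1 (0.41). ORC2 measured 17.0, 16.8 and 17.5 FPKM in X453_NC, 19.0, 19.4 and 18.1 FPKM in X453_1, and 15.6, 14.0 and 14.2 FPKM in X453_2 (chosen after the values were seen). It was on opposite sides of control in the 2 groups, with a difference of -0.35 (SE 0.046, adjusted P = 3.8e-04 by limma), under the fold limit, and passed it without the unsuffixed X453_2 library (-0.39). After GC correction the difference was -0.22, and ORC2 stood at 0.045 against X453_NC in X453_1 (adjusted P = 0.39 by limma). With median-ratio scaling it was -0.25, and ORC2 stood at -0.12 in X453_2 (adjusted P = 0.051 by limma).

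**Figure D4:**
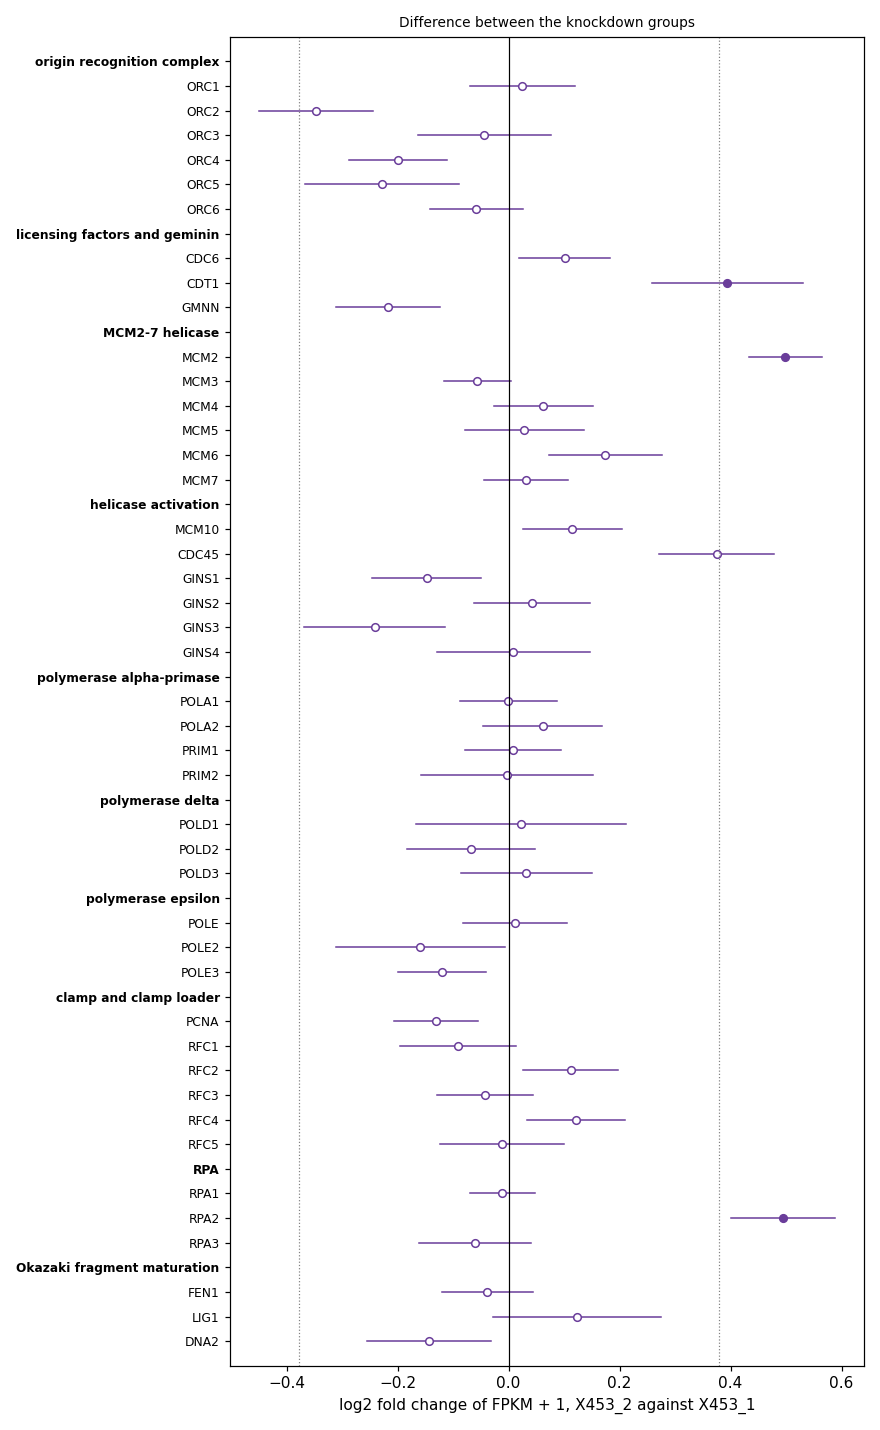
Log2 fold change of FPKM + 1 in X453_2 against X453_1 (horizontal axis) for the 43 members by role. Lines are 95% confidence intervals from limma, filled points are called genes and dotted lines mark the 1.3-fold limit. Only CDT1 (0.39), MCM2 (0.50) and RPA2 (0.49) lie beyond the limit, with CDC45 (0.375) just inside it, and the polymerase alpha-primase and delta genes lie within 0.07 of 0.

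Promoter sequences were examined because members that share E2F control are known to be transcribed together. RefSeq windows (GRCh38.p14, 250 bases before to 50 bases from the start on) were found for 36 of the 43 members. The E2F words TTTCCCGC, TTTCGCGC, TTTGCCGC and TTTGGCGC, sought on both strands and able to overlap each other, occurred in 18 of 36 members (50.0%), beside 4.0% of all 27305 genes with a window and 6.9% of the 9393 tested genes with one. The word TTTGAA of the CHR element, typical of G2/M genes, occurred in 1 of 36 (2.8%). It occurred in 18.2% of all genes and 13.2% of tested genes with a window. CCAAT occurred in 21 of 36 (58.3%), beside 39.7% of all genes and 43.3% of tested genes. A site of each of 6 members that moved is given here. PCNA and CDT1 hold the same word and went in opposite directions, and GMNN, CDC6, MCM2 and MCM6 rose in at least 1 group. Other members with a word also moved but are not printed. These are GINS1, which rose in X453_1, and GINS3, which holds the word of PCNA and CDT1 and fell in X453_2. Each line gives 30 bases, 5′ to 3′ on the gene's strand, with the word or overlapping pair of words in capitals, and GCGGGAAA is TTTCCCGC read on the other strand.
PCNA (chr20:5126663-5126692, minus strand): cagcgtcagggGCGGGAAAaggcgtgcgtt
CDT1 (chr16:88803743-88803772, plus strand): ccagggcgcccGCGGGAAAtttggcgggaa
CDC6 (chr17:40287875-40287904, plus strand): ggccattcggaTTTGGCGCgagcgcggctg
GMNN (chr6:24775322-24775351, plus strand): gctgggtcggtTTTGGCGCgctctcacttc
MCM6 (chr2:135876513-135876542, minus strand): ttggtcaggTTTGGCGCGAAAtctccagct
MCM2 (chr3:127598404-127598433, plus strand): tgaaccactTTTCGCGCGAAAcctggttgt

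The first capital letter lies 59 bases before the start of PCNA, 35 before that of CDT1, 80 before that of GMNN and 90 before that of MCM6, and 7 and 2 bases after the first base of CDC6 and MCM2. Of the 18 members with an E2F word, 4 (22.2%) rose and 1 (5.6%) fell in X453_1 (median 0.18 on the log2 scale), and 4 (22.2%) rose and 2 (11.1%) fell in X453_2 (median 0.20). Of the 18 with a window and no such word, FEN1, POLD1 and PRIM2 among them, 2 (11.1%) rose and 1 (5.6%) fell in X453_1 (median 0.13) and 5 (27.8%) rose and 1 (5.6%) fell in X453_2 (median 0.01). Over all genes tested, 11.0% rose and 15.5% fell in X453_1 and 10.9% rose and 23.0% fell in X453_2, and the members with and without the word were not tested against each other. A word match is a description of these windows and not a measured binding site.

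Of 40 replication fork genes that are not members, 2 (5.0%) rose and 7 (17.5%) fell in X453_1, beside 11.0% and 15.5% of all genes tested, and 1 (2.5%) rose and 10 (25.0%) fell in X453_2, beside 10.9% and 23.0%. The shares that fell were thus near those over all genes, and the medians were -0.00 and -0.04. RECQL4 (a helicase needed for initiation; 9.81 FPKM in X453_NC, 5.59 in X453_1 and 5.06 in X453_2), RNASEH2C, PCLAF (a PCNA-binding protein; 28.8, 18.8 and 18.2 FPKM), LRWD1 (an ORC-binding protein) and DBF4B (an activator of the CDC7 kinase) fell in both groups, with log2 fold changes of -0.49 to -0.79 in X453_1 and of -0.62 to -0.84 in X453_2. After GC correction the counts were 3 up and 3 down in X453_1 and 4 up and 5 down in X453_2; LRWD1 was called in neither and RECQL4 only in X453_2, while PCLAF, RNASEH2C and DBF4B were called in both. DTL, the adaptor of the ubiquitin ligase that destroys CDT1 protein in S phase, rose from 13.6 to 20.4 FPKM in X453_1 and 20.6 FPKM in X453_2 (log2 fold changes 0.55 and 0.57, adjusted P = 1.2e-06 and 5.9e-07 by limma; chosen after the values were seen).

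Among 18 G1/S cyclins and E2F factors, 5 (27.8%) rose and 1 (5.6%) fell in X453_1, beside 11.0% and 15.5% of all genes tested, and 5 (27.8%) rose and 2 (11.1%) fell in X453_2, beside 10.9% and 23.0%, with medians of 0.18 and 0.17. CCNE1 and CCNE2 are the cyclins E that drive origin firing with CDK2. They rose by 0.63 and 0.54 in X453_1 and by 0.90 and 0.49 in X453_2. Their X453_NC means were low, 1.64 and 1.18 FPKM, near the filter of 1 FPKM. CCND3 rose by 0.64 and 0.72, and CDC25A, a phosphatase that activates CDK2, by 0.60 and 0.65, while CDK4 fell by 0.49 and 0.63. Among 22 G2/M genes, 0 rose and 1 (4.5%) fell in X453_1 by limma (11 of 22 had an unadjusted P of at most 0.05 and a log2 fold change above 0), and 0 rose and 7 (31.8%) fell in X453_2, beside the same shares over all genes, with medians of 0.05 and -0.30. After GC correction 4 of the 22 fell in X453_1, beside 10.8% of all genes, and 6 in X453_2, beside 14.8%. CDC25C, which activates CDK1 at mitotic entry, was the only one to fall in both, by 0.45 and 0.61. Of the 18 G1/S genes, 4 were up and 1 down in X453_1 after GC correction, beside 11.6% and 10.8% of all genes. In X453_2, 7 were up and 2 down, beside 14.8% up and 14.8% down. These lists moved beside the members in the same libraries, and their part in the members' values was not tested.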

How the data were processed

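RNA of 9 libraries was sequenced on the BGISEQ-500 platform. The authors deposited 1 table of FPKM per gene, rounded to 2 decimals, with the start, end and length of each gene; the submitters' processing notes name Bowtie2 (version 2) and GRCh37.p13, and the counting tool is not given in the sources used here. The deposited FPKM columns occur 2 times; both copies are equal and only one was read, and 4 lines without values were left out. The table's group ratios and their p-values and q-values were not used.

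FPKM are not counts, so log2(FPKM + 1) was fitted with limma 3.58.1 (lmFit, eBayes with trend) in R 4.3.3 over all 9 libraries, for 12884 genes averaging 1 FPKM or more, and P was adjusted by Benjamini-Hochberg over these genes. Log2 fold changes, to which the fold limit was applied, are on the log2(FPKM + 1) scale, which understates changes of low genes. Rises given as n-fold and means given as times that of X453_NC are ratios of mean FPKM. Calls needed a change of 1.3-fold or more with an adjusted P no higher than 0.05. An exact permutation of 3 against 3 libraries cannot go below a two-sided P of 0.1. Fits were tested on simulated data.

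The members and lists were chosen with earlier results of these data known. Named with values per library were members called in the same direction in both knockdown groups and, in each role, the member with the largest absolute mean log2 fold change; in the other lists, at most 5 genes called in the same direction in both. Further members are marked in the text; MCM6, MCM10, GINS1, RFC2 and RFC4 were also added after their values were seen. GC content and gene overlaps were taken from GENCODE v29 transcripts (GRCh38), matched by name, never by coordinate, and promoters from RefSeq (GRCh38.p14). Depth was taken from the step that 1 fragment makes in low FPKM, whose mean distance from a whole fragment was 0.082 to 0.111. PCLAF was read for KIAA0101. A further cell line marker is not reported here. Tables and figures were made in Python 3.11.15 with pandas 2.3.3 and matplotlib 3.10.9. Alternatives were another pseudocount, filter, fold limit or scaling, GC correction, a replicate block and each library left out.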

Additional observations from a re-analysis of the deposited data

Results flagged for a closer look

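A total of 4 members differed between the knockdown groups, either by the test of X453_2 against X453_1 itself or because every library of one group lay above and every library of the other below control. MCM2 differed by 0.50 on the log2 scale (adjusted P = 4.3e-06 by limma), and all X453_2 libraries were above all X453_1 libraries. RPA2 differed by 0.49 (adjusted P = 3.3e-05 by limma), with X453_1 at 18.9 to 20.2 FPKM, X453_NC at 22.3 to 22.5 FPKM and X453_2 at 26.5 to 29.3 FPKM. CDT1 differed by 0.39 (adjusted P = 8.5e-04 by limma), with falls in both groups, and the call was lost without any 1 of 3 libraries, as given above. ORC2 differed by -0.35 (adjusted P = 3.8e-04 by limma) and lay above control in X453_1 and below it in X453_2, although the difference was smaller than the fold limit. GC correction gave a difference of -0.22 with X453_1 at 0.045 against control (adjusted P = 0.39 by limma), and median-ratio scaling one of -0.25 with X453_2 at -0.12 (adjusted P = 0.051 by limma).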

How the results depend on the processing

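Limits: 3 libraries per group of unknown origin limit each test, FPKM hide the counts, and calls close to the 1.3-fold limit (PRIM2, RFC4, GINS1, MCM6) turned on single libraries. With no fold limit, 26 members were higher and 8 lower in X453_1, 21 and 8 in X453_2, and 9 and 9 in X453_2 against X453_1. Over all genes, 32.1% were higher and 32.3% lower in X453_1, 26% and 44.8% in X453_2, and 10.2% and 33.9% in the last. At 1.5-fold the members numbered 4 and 1, 3 and 1, and 0 higher in the last. The shares over all genes were 4.18% and 7.95%, 5.25% and 12.3%, and 0.737% higher. GC correction gave 5 higher and 1 lower in X453_1, beside 11.6% and 10.8% of all genes, and 1 lower in X453_2, beside 14.8%. In X453_2, median-ratio scaling gave 16 higher and 3 lower, beside 15.3% and 17.3% of all genes. The median of the members in X453_2 was 0.167 with a minimum of 5 FPKM (which left out 3 members), 0.215 with median-ratio scaling and 0.198 with GC correction, and in X453_2 against X453_1 it was 0.097 and 0.081 under the last pair; median-ratio scaling also moved the median of all genes in X453_2 from -0.095 to -0.0041, and the share of lower genes among all calls from 67.8% to 53.2% (49.9% with GC correction); in X453_2 against X453_1 that share went from 72.0% to 38.0% (46.7%). The causes were not tested.

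Leaving out each library in turn gave 7 to 10 members higher and 2 to 2 lower in X453_1, 9 to 11 higher and 3 to 3 lower in X453_2, and 2 to 3 higher and 0 to 1 lower in X453_2 against X453_1, with medians of 0.123 to 0.146, 0.097 to 0.175 and -0.015 to 0. The alternatives that keep the call rule were tallied for 21 members against X453_NC and 5 differences between the knockdown groups. Over them, 18 values lost and 12 gained a call. Among values called before or after, 0 changed sign. Uncalled values could change sign, as MCM2 in X453_1 did (-0.02, and 0.106 after GC correction). Values outside this tally also gained calls against X453_NC. With GC correction these included MCM7 in both groups and LIG1 in X453_2. With median-ratio scaling they included MCM3, MCM7, CDC45 and POLA2 in X453_2. A replicate block on the suffix left 8 members higher and 2 lower in X453_1 and 11 and 3 in X453_2. Knockdown and X453_NC libraries of the same suffix deviated from their group means at correlations of -0.24 to 0.10. Libraries of different suffix were not compared, so these values cannot decide whether the suffix pairs the libraries. The other alternatives kept each count within 1.5 times.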
